A study of Rattus norvegicus with 9 samples.

Results

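The elastic fibre genes are 8 genes, Eln, Fbn1, Fbln1, Fbln5, Efemp2, Lox, Loxl1 and Mfap4, of the 34408 entries in a table of RNA-seq read counts from rat spleen, and they were taken from it by gene symbol. Spleen RNA was sequenced in 3 groups, control, TAA and TAA+celecoxib, with 3 libraries in each. TAA stands for thioacetamide, which damages the liver and is used as a rodent model of cirrhosis, and celecoxib is a selective blocker of cyclooxygenase 2. Rats of the TAA group were injected intraperitoneally with 200 mg/kg every 3 days for the first 8 weeks and with 100 mg/kg every 3 days for the last 8 weeks. The TAA+celecoxib group received the same injections and, during the last 8 weeks, celecoxib at 20 mg/kg per day. All 3 groups carry the genotype label WT, and the labels give no treatment beyond the word control for the control rats. Strain, age and the route of celecoxib are not stated, and the labels do not say that samples are separate animals. The p-values therefore measure only the spread between these samples.

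Elastic fibres let vessel walls, lung and skin recoil after stretch, and in the spleen they lie in the capsule, the trabeculae and the walls of arteries. Their core is elastin, which is secreted as tropoelastin, laid on microfibrils of fibrillin and cross-linked by enzymes of the lysyl oxidase family. Fibulins bring tropoelastin, microfibrils and the cross-linking enzymes together, and smooth muscle cells, fibroblasts and endothelial cells are known sources of these proteins.

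Libraries held 14211789 to 19014761 counts. The first principal component of all genes tested held 31.3% of the variance and set control 1 (-63.2) and TAA+celecoxib 1 (-60.3) apart from the other libraries (-1.73 to 50.1). The same 2 libraries had the lowest summed levels of endothelium markers, 216 and 220 CPM (CPM is the count scaled by a TMM-adjusted library size), where the others had 532 CPM or more. Control 1 and TAA+celecoxib 1 also had the lowest macrophage marker sums, 2972 and 2380 CPM, against 4585 CPM or more elsewhere. Their T cell marker sums were the highest, 699 and 663 CPM, against 524 CPM or less elsewhere. The label names the cell type as splenocytes, while the labels' protocols state that RNA was isolated from spleen. All 5 B cell and all 5 T cell markers were detected in every library, as were all 7 smooth muscle markers and the 9 fibroblast and reticular stroma markers in the table. Hepatocyte markers were uneven: the 7 of them summed to 1378 CPM in TAA 1 and to 170 to 755 CPM elsewhere. The mean log2 CPM of those tested was 7.25 in TAA 1, 4.40 in control 1 and 0.387 to 1.37 in the other libraries. Pancreatic acinar markers summed to 93.8 CPM in TAA 2 and to 8.14 to 24.6 CPM elsewhere.

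Promoters of 4 of the 8 genes, Fbn1, Fbln5, Efemp2 and Loxl1, were found in the RefSeq promoter table of the build GRCr8, which covers 250 bases before to 50 bases after each gene start. The sequences of Efemp2, whose libraries separated TAA+celecoxib from control, and of Fbln5, the member with the highest level, are shown 5′ to 3′. Capitals mark the GC box GGGCGG or its reverse complement. Efemp2 lies on the plus strand at chr1:212211472-212211771 and Fbln5 on the minus strand at chr6:126742657-126742956.
Efemp2: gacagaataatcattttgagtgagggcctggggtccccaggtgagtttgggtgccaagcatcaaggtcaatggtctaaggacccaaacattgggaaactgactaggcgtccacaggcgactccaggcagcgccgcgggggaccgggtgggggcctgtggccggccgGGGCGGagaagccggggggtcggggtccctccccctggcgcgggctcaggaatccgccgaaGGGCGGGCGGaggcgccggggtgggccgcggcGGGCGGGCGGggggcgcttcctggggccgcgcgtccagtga
Fbln5: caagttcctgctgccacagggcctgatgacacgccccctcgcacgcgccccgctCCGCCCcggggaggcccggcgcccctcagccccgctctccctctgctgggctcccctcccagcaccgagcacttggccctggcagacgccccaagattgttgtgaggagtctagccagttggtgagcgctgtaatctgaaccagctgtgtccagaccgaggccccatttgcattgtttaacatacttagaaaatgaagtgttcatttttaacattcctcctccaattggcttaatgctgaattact
The Efemp2 window held 5 GC boxes, which overlap in pairs at 2 places, and the Fbln5 window held 1, while those of Fbn1 and Loxl1 held 0. On either strand, GGGCGG was found in 33.1% of all 33469 promoters of this length. The letters CAGAC, the core of a SMAD binding element, were found 2 times in Fbln5, 2 times in Loxl1, 1 time in Fbn1 and 0 times in Efemp2, and in 50.1% of all promoters. None of the 4 windows held TATAAA, which 14.2% of all promoters hold. The GC content was 71.0% in Efemp2, 70.7% in Fbn1, 61.0% in Loxl1 and 58.3% in Fbln5, against a median of 51.7% over all promoters. These matches describe the letters of the windows.

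Levels of different genes were compared in FPKM, the deposited values scaled by gene length. The 7 detected members spanned a range from Fbln5, with a median of 75.7 FPKM over the 9 libraries (61.8 to 99.2), to Fbln1, with 5.33 FPKM (2.30 to 9.46). Between them lay the cross-linking enzymes Loxl1 at 28.9 FPKM (19.3 to 35.0) and Lox at 20.8 FPKM (12.2 to 24.9). Efemp2 followed at 12.0 FPKM (9.04 to 15.1), Eln at 9.82 FPKM (7.0 to 15.6) and Fbn1 at 8.77 FPKM (4.76 to 11.4). Some of these steps held within every library. The level of Fbln5 exceeded that of Loxl1 in 9 of 9 libraries, with a median ratio of 3.10 and no overlap of their ranges. Lox exceeded Efemp2 in 9 of 9, although their ranges overlapped. Other neighbours were not set apart in every library: Loxl1 was above Lox in 7 of 9, Efemp2 above Eln in 6 of 9, Eln above Fbn1 in 6 of 9 and Fbn1 above Fbln1 in 8 of 9. The messenger of the core protein was thus below those of Fbln5, Loxl1 and Lox in all 9 libraries.

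**Figure D1:**
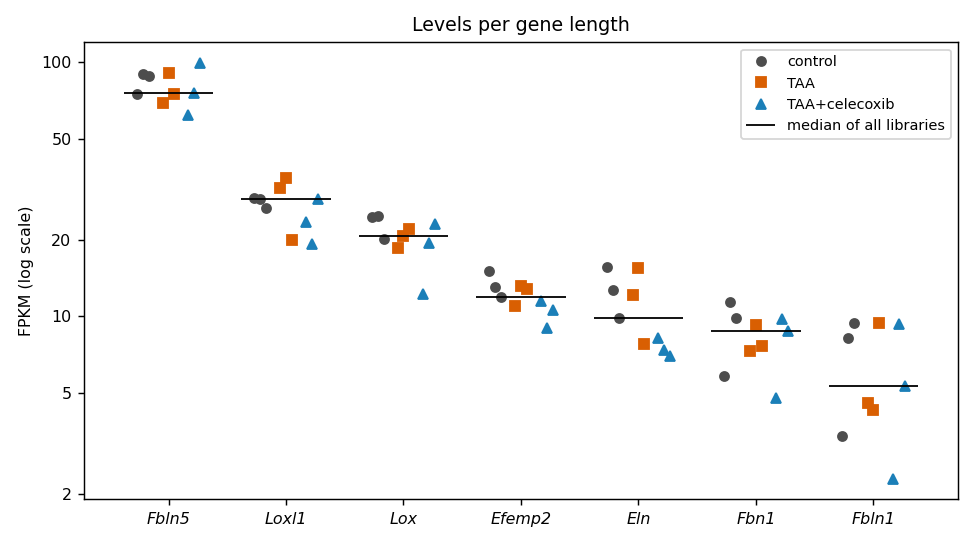
Levels of the 7 detected elastic fibre genes in FPKM on a log axis, with 1 point per library by group and a line at the median of the 9 libraries. Fbln5 lies above every other member in all libraries, from 61.8 to 99.2 FPKM, and Fbln1 has the widest spread, from 2.30 to 9.46 FPKM.

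No elastic fibre gene passed the adjusted test in any of the 3 comparisons, and elastin had the smallest p among the members in both comparisons with TAA+celecoxib, where its level was lowest. In TAA against control, Lox had the smallest p of a member, 0.403 unadjusted by edgeR. EdgeR's quasi-likelihood test with Benjamini-Hochberg adjustment called 0 of the 7 tested members in TAA against control, 0 in TAA+celecoxib against TAA and 0 in TAA+celecoxib against control. It called 0% of all 15954 genes in each, and limma-voom called 0 members and 0 genes. DESeq2, run without that filter on low counts, called 0 members, and 50, 22 and 26 of the 22742 genes it tested in the 3 comparisons. At an unadjusted p under 0.05, edgeR had 0 members in the first comparison and Eln alone in both others, where 6.00%, 5.09% and 5.03% of all genes lay under that value. DESeq2 had 0 members, then Eln, then Eln and Efemp2, and limma-voom had 0, 0 and Eln. The comparisons share libraries pairwise, so their values are set side by side and are not independent of each other. In bulk tissue, fewer cells of a type and less RNA per cell cannot be told apart.

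**Figure D2:**
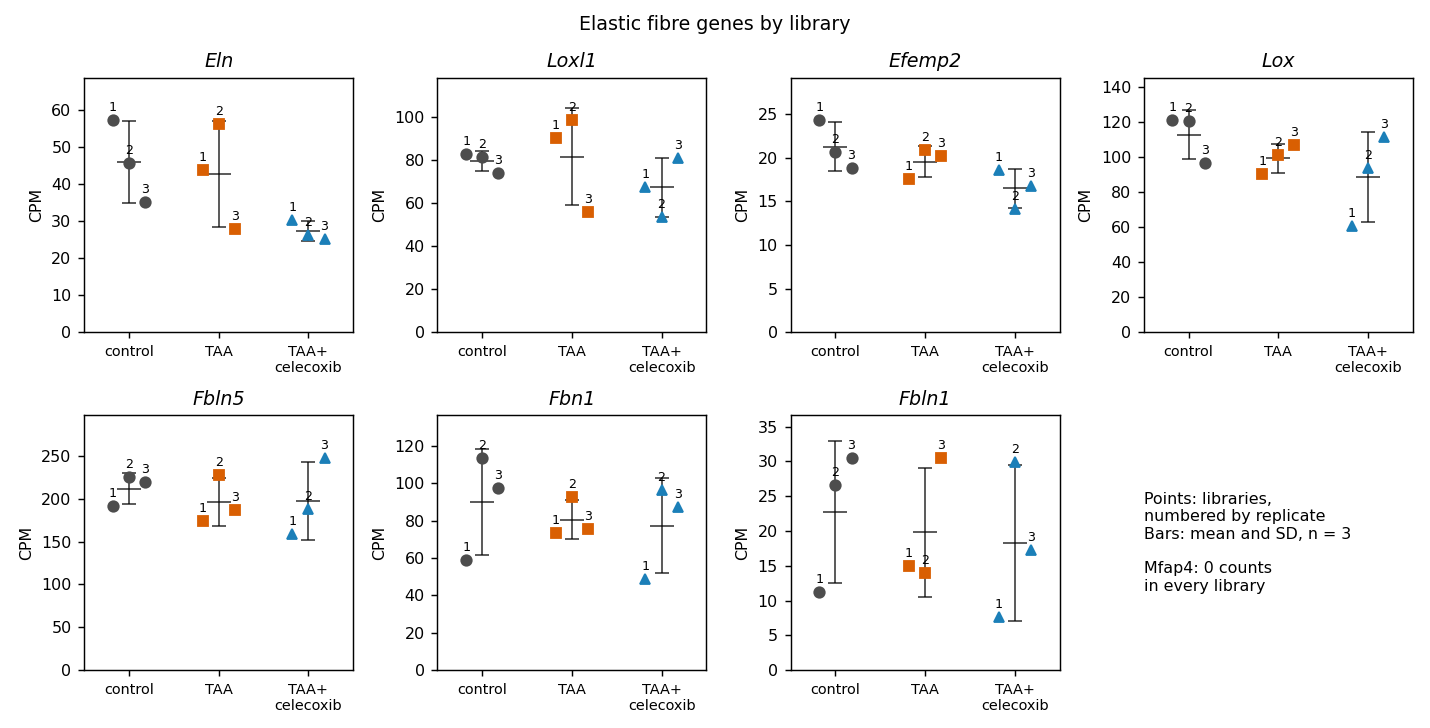
Level of each detected elastic fibre gene in CPM, 1 panel per gene, with 1 point per library marked by its replicate number and bars for the mean and SD of 3 libraries. The 3 TAA+celecoxib libraries lie between 25.3 and 30.4 CPM for Eln, below all 3 controls (35.2 to 57.3 CPM), while for the other members the groups overlap or, for Efemp2, nearly touch.

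Eln encodes elastin, the core protein (ENSRNOG00000001469; chromosome 12, 24978483 to 25021863, plus strand, as the deposited table gives it). Its level was 57.3, 45.8 and 35.2 CPM in control 1, 2 and 3, then 44.0, 56.4 and 28.0 CPM in TAA 1, 2 and 3, and 30.4, 26.4 and 25.3 CPM in TAA+celecoxib 1, 2 and 3. All TAA+celecoxib libraries were below all controls, and TAA 3 lay among the TAA+celecoxib libraries, so those groups overlapped. Mean levels were 46.1 ± 11.1 CPM (SD, n = 3) for control, 42.8 ± 14.2 CPM for TAA and 27.3 ± 2.69 CPM for TAA+celecoxib. The TAA+celecoxib libraries were also the closest to each other.

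In TAA against control the fitted log2 difference of Eln was -0.11 ± 0.26 (SE), with a 95% interval of -0.70 to 0.48 and an adjusted p of 0.922 by edgeR's quasi-likelihood test. Its direction depended on single libraries: the difference was 0.078 without control 1, 0.12 without TAA 3 and 0.067 without control 1 and TAA+celecoxib 1 together. In TAA+celecoxib against TAA it was -0.64 ± 0.26 (95% interval -1.24 to -0.053), or 1.56-fold lower, with an unadjusted p of 0.0360 and an adjusted p of 0.890 by the same edgeR test. Leaving out single libraries gave -0.88 to -0.39 with unadjusted p-values of 0.00396 to 0.159, and the smallest difference was reached without TAA 2, the TAA library with the highest Eln. Against control it was -0.75 ± 0.26 (95% interval -1.35 to -0.16), or 1.69-fold lower, with an unadjusted p of 0.0182 and an adjusted p of 0.911 by edgeR. Here leaving out single libraries gave -0.92 to -0.57 with unadjusted p-values of 0.00536 to 0.0718, the smallest difference without control 1. The fitted value of Eln was lower in TAA+celecoxib in both comparisons under every setting tried. An exact permutation test of 3 against 3 libraries cannot give a p below 0.1, and the adjusted values did not pass the threshold of 0.05.

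Markers of smooth muscle, a main source of elastin, moved in part with Eln. The 7 smooth muscle markers summed to 917, 802 and 531 CPM in control 1, 2 and 3, to 564, 963 and 533 CPM in TAA 1, 2 and 3 and to 649, 516 and 614 CPM in TAA+celecoxib 1, 2 and 3. Control 1 and TAA 2, which had the highest Eln, also had the highest sums. All 7 markers were fitted lower in TAA+celecoxib than in control, with a median log2 difference of -0.37, where 49.8% of all genes were fitted lower. In that comparison, 0 of these markers passed edgeR's test (smallest adjusted p 0.911) or an unadjusted p under 0.05. In TAA+celecoxib against TAA, 4 were fitted lower and 3 higher (median -0.16), where 48.8% of all genes were fitted lower. In TAA against control, 5 were fitted lower and 2 higher (median -0.20), where 49.8% of all genes were fitted lower. There Myh11 and Cnn1 were lower at an unadjusted edgeR p under 0.05, against 3.15% of all genes. Over the 9 libraries, the log2 level of Eln and the mean log2 level of the smooth muscle markers had r = 0.76 (exact permutation p = 0.0140, adjusted p = 0.0980 over 28 relations) and a Spearman rho of 0.80 (exact permutation p = 0.0138, adjusted p = 0.194). Without control 1 and TAA 2, the libraries farthest from the median marker score, r was 0.47, so the relation rests in large part on them. With group means removed, r was 0.83. The part of smooth muscle content in the difference of Eln was not tested.

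Fbn1 encodes fibrillin 1, the main protein of the microfibrils (ENSRNOG00000007302; chromosome 3, 117569697 to 117766120, minus strand). Its level was 58.7, 114 and 97.5 CPM in control 1, 2 and 3, then 73.2, 92.4 and 75.6 CPM in TAA 1, 2 and 3, and 48.6, 96.1 and 87.2 CPM in TAA+celecoxib 1, 2 and 3. The lowest values were those of control 1 and TAA+celecoxib 1, the libraries that stand apart, and all 3 groups overlapped. The fitted log2 difference was -0.16 ± 0.29 in TAA against control, -0.057 ± 0.29 in TAA+celecoxib against TAA and -0.22 ± 0.29 in TAA+celecoxib against control (edgeR adjusted p of 0.898, 0.979 and 0.973). The sign turned in each: to 0.041 without control 2 in the first, to 0.055 without TAA 2 and 0.19 without TAA+celecoxib 1 in the second, and to 0.028 without TAA+celecoxib 1 in the third. Other libraries made the differences larger: without control 1 the first was -0.39 and the third -0.45, and without TAA+celecoxib 2 the second was -0.24 and the third -0.40. Without control 1 and TAA+celecoxib 1 together, the first was -0.40 with an unadjusted edgeR p of 0.0261 and an adjusted p of 0.831. A pseudogene on the other strand of the locus had at most 3 counts in a library. The FPKM ratio of Eln to Fbn1 was 2.69 in control 1 and 0.757 to 1.72 in the other 8 libraries.

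Of the 3 fibulins, Fbln1 stood out in spread. Fbln1, a fibulin of elastic fibres and basement membranes (ENSRNOG00000014137; chromosome 7, 126096793 to 126176468, plus strand), was the most variable member, with a coefficient of variation of 44.8% over the 9 libraries. Its level was 11.2, 26.6 and 30.4 CPM in control 1, 2 and 3, then 14.9, 14.0 and 30.5 CPM in TAA 1, 2 and 3, and 7.66, 29.9 and 17.3 CPM in TAA+celecoxib 1, 2 and 3. Each group held both low and high libraries. The fitted log2 differences were -0.20 ± 0.54, -0.12 ± 0.54 and -0.32 ± 0.54 in the 3 comparisons, with edgeR adjusted p-values of 0.934, 0.977 and 0.983. Intervals reached from -1.42 to 1.02 in TAA against control, so changes of more than 2-fold in either direction lay within them. The sign turned without control 3 (0.071) or TAA 2 (0.0010) in the first, without TAA 3 (0.34) or TAA+celecoxib 1 (0.25) in the second and without TAA+celecoxib 1 (0.050) in the third.

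The level of Fbln1 ran parallel to the endothelium markers across libraries, a relation that passed after adjustment over all 9 libraries and not within the 7 that cluster together. The 7 endothelium markers in the table summed to 216, 537 and 741 CPM in control 1, 2 and 3, to 532, 539 and 872 CPM in TAA 1, 2 and 3 and to 220, 571 and 579 CPM in TAA+celecoxib 1, 2 and 3. Because control 1 and TAA+celecoxib 1 form a separate low cluster, the relation was read within the other 7 libraries. There r was 0.82 (exact permutation p = 0.0183, adjusted p = 0.256 over 28 relations) and the Spearman rho 0.96 (exact permutation p = 0.00278, adjusted p = 0.0778), which did not pass after adjustment. Over all 9 libraries, the low cluster included, r was 0.91 (exact permutation p = 3.31e-05, adjusted p = 0.000926) and rho 0.98 (exact permutation p = 4.96e-05, adjusted p = 0.00139). With group means removed and the low cluster included, r was 0.96 for the endothelium markers and also 0.96 for the macrophage markers. Fbln1 and the macrophage markers had r = 0.75 over 9 libraries (exact permutation p = 0.0178, adjusted p = 0.0997), rho = 0.53 (exact permutation p = 0.148, adjusted p = 0.412) and r = 0.14 within the 7. Fbn1 and the endothelium markers had r = 0.79 over 9 libraries (exact permutation p = 0.0133, adjusted p = 0.0980) and rho = 0.68 (exact permutation p = 0.0503, adjusted p = 0.282). Within the 7 libraries their r was 0.0063, so that relation rested on the low cluster. Marker scores and members come from the same libraries and share their depth and composition.

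**Figure D3:**
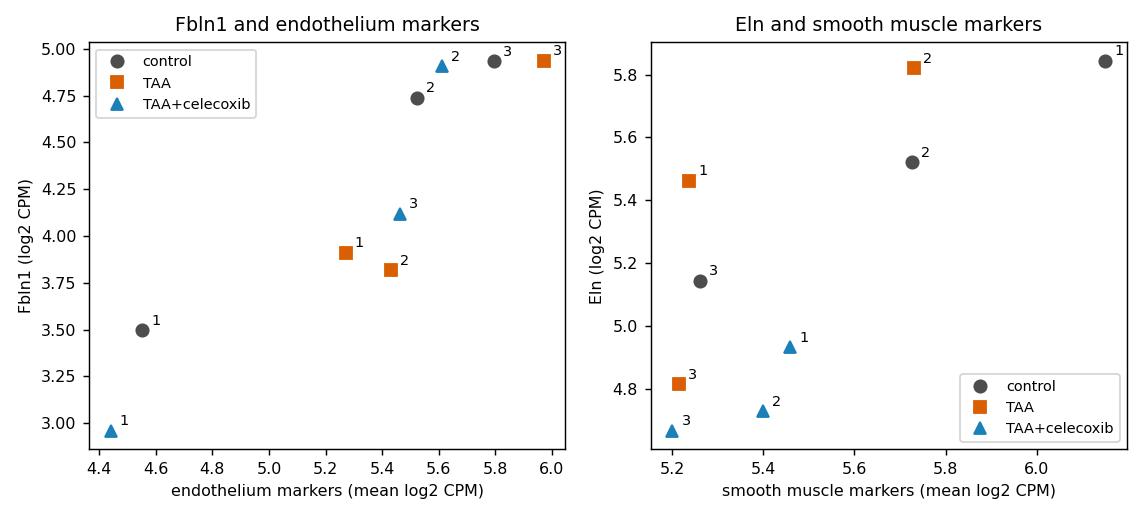
Log2 CPM of Fbln1 against the mean log2 CPM of endothelium markers (left) and of Eln against that of smooth muscle markers (right), 1 point per library with its replicate number. Control 1 and TAA+celecoxib 1 lie apart at the low end of the left panel, and control 1 lies alone at the high end of the right panel.

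Fbln5, which binds tropoelastin and integrins (ENSRNOG00000050539; chromosome 6, 125644804 to 125723944, minus strand), was the least variable member, with a coefficient of variation of 14.5%, close to the 15.1% of Efemp2. Its level was 191, 225 and 219 CPM in control 1, 2 and 3, then 174, 227 and 186 CPM in TAA 1, 2 and 3, and 158, 187 and 248 CPM in TAA+celecoxib 1, 2 and 3. The highest and the lowest library were both in TAA+celecoxib. Fitted log2 differences were -0.11 ± 0.18, 0.014 ± 0.18 and -0.099 ± 0.18 in the 3 comparisons, with edgeR adjusted p-values of 0.881, 0.990 and 0.987. The 95% interval of the second was -0.39 to 0.42. Its sign turned without TAA 1 (-0.079), TAA 3 (-0.020) or TAA+celecoxib 3 (-0.18), and that of the third without TAA+celecoxib 1 (0.039). The FPKM ratio of Fbln5 to Eln was 4.81 to 9.0 in control, 5.71 to 9.63 in TAA and 7.54 to 14.2 in TAA+celecoxib, so the groups overlapped.

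Efemp2 encodes fibulin 4, which couples lysyl oxidase to tropoelastin (ENSRNOG00000020587; chromosome 1, 220854403 to 220861420, plus strand). Its level was 24.3, 20.6 and 18.8 CPM in control 1, 2 and 3, then 17.5, 20.9 and 20.2 CPM in TAA 1, 2 and 3, and 18.6, 14.2 and 16.7 CPM in TAA+celecoxib 1, 2 and 3. TAA+celecoxib lay below control without overlap, by a narrow margin between TAA+celecoxib 1 and control 3, while TAA overlapped with both. Eln and Efemp2 were the 2 of 7 members with no overlap between TAA+celecoxib and control, where 9.68% of all genes had none (4.42% lower and 5.27% higher). In the other comparisons 0 of 7 members had none. The share of all genes without overlap was 14.8% in TAA against control (7.89% lower and 6.94% higher) and 10.9% in TAA+celecoxib against TAA (5.03% lower and 5.87% higher). The fitted log2 difference of Efemp2 was -0.12 ± 0.16, -0.24 ± 0.16 and -0.36 ± 0.16 in the 3 comparisons, with edgeR adjusted p-values of 0.858, 0.890 and 0.911. Its 95% interval in TAA+celecoxib against control was -0.73 to 0.0045. Without TAA+celecoxib 2, the library with the lowest value, the second difference was -0.14. The log2 levels of Eln and Efemp2 had r = 0.73 over 9 libraries (exact permutation p = 0.0210, adjusted p = 0.121 over 21 pairs) and rho = 0.83 (exact permutation p = 0.00827, adjusted p = 0.174), and r = 0.50 without control 1 and TAA 2.

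The cross-linking enzymes Lox and Loxl1, which oxidise lysines of elastin and, for Lox, also of collagen, showed no shared pattern. Lox (ENSRNOG00000014426; chromosome 18, 47500330 to 47577819, minus strand) was at 121, 121 and 96.5 CPM in control 1, 2 and 3, at 90.3, 101 and 107 CPM in TAA 1, 2 and 3 and at 60.7, 93.6 and 111 CPM in TAA+celecoxib 1, 2 and 3. TAA+celecoxib 1 was well below the other 8 libraries, and the groups overlapped. Its fitted log2 difference was -0.18 ± 0.21, -0.17 ± 0.21 and -0.35 ± 0.21 in the 3 comparisons, with edgeR adjusted p-values of 0.843, 0.920 and 0.912. Without TAA+celecoxib 1 the second was 0.046. The gene Zfp474 on the other strand of the Lox locus had at most 5 counts in a library.

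Loxl1 (ENSRNOG00000008680; chromosome 8, 63067300 to 63092009, minus strand), an enzyme that adult mice need to keep their elastic fibres, was at 83.1, 81.6 and 74.3 CPM in control 1, 2 and 3. It was at 90.4, 98.7 and 56.1 CPM in TAA 1, 2 and 3 and at 67.6, 53.7 and 81.3 CPM in TAA+celecoxib 1, 2 and 3. The controls were close together, and the TAA libraries spanned nearly the whole range of the 9. The fitted log2 difference was 0.036 ± 0.22, -0.27 ± 0.22 and -0.24 ± 0.22 in the 3 comparisons, with edgeR adjusted p-values of 0.971, 0.890 and 0.946. The first turned negative without control 3 (-0.012), TAA 1 (-0.037) or TAA 2 (-0.12). Over the 9 libraries Loxl1 and the mean log2 level of the fibroblast and reticular stroma markers had r = 0.83 (exact permutation p = 0.00633, adjusted p = 0.0887 over 28 relations) and rho = 0.77 (exact permutation p = 0.0214, adjusted p = 0.200). Without control 1 and TAA+celecoxib 2, r was 0.81. Those 9 markers summed to 756 to 866 CPM in control, 571 to 736 CPM in TAA and 613 to 772 CPM in TAA+celecoxib, and their part in the level of Loxl1 was not tested.

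Mfap4 encodes a microfibril-associated glycoprotein that binds fibrillin and elastin (ENSRNOG00000002382; chromosome 10, 47765432 to 47768483, plus strand). It had 0 counts in all 9 libraries and was not tested. A count of 0 allows up to 3 counts, which is 0.157 to 0.213 CPM in a library, and this covers counting error only. The value is uncertain, since near-identical copies can take each other's reads. The genes Mapk7, which overlaps Mfap4 on the other strand, and LOC108348055, which lies next to it, also had 0 counts in every library. A further entry, LOC102553715, is described in the table as microfibril-associated glycoprotein 4-like and lies at 49000973 to 49003931 on the same chromosome. It was looked up after the value of Mfap4 was seen.

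LOC102553715 had 313, 12 and 11 counts in control 1, 2 and 3, then 95, 6 and 3 counts in TAA 1, 2 and 3, and 174, 21 and 226 counts in TAA+celecoxib 1, 2 and 3. High and low libraries occurred in every group, with 12.7 CPM or more in control 1 and TAA+celecoxib 3 and less than 1 CPM in 4 libraries. The edgeR adjusted p-values were 0.835, 0.900 and 0.998 in the 3 comparisons. Beside it, LOC100912585, described as mitogen-activated protein kinase 7-like, had 2 to 61 counts. Whether reads of Mfap4 were counted under LOC102553715 was not tested.

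As a group, 6 of the 7 tested members were fitted lower in TAA than in control, 6 of 7 lower in TAA+celecoxib than in TAA and 7 of 7 lower in TAA+celecoxib than in control. Of all genes, 49.8%, 48.8% and 49.8% were fitted lower in these comparisons. None of the differences of members passed the adjusted test, and the members share the same libraries. The median log2 difference of the members was -0.12, -0.17 and -0.32 in the 3 comparisons, and that of all genes 0.0017, 0.0071 and 0.0012. All 3 medians changed in size when single libraries were left out, and only the second changed sign. Without TAA+celecoxib 1, the second was 0.046, with 3 of 7 members lower, and the third was -0.14, with 4 of 7 lower. The first was -0.045 without TAA 1, -0.070 without control 2 and -0.19 without TAA 2, and the second was -0.11 without TAA 3 and -0.25 without TAA+celecoxib 3. When each gene's log2 CPM was set to SDs from its mean over the 9 libraries, the members averaged 0.29, 0.78 and 0.30 in control 1, 2 and 3 and -0.16, 0.61 and -0.16 in TAA 1, 2 and 3. In TAA+celecoxib 1, 2 and 3 they averaged -1.24, -0.51 and 0.10. TAA+celecoxib 1 was thus the lowest library for the group, through Lox, Fbn1, Fbln1 and Fbln5, while its Eln was the highest of its own group.

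**Figure D4:**
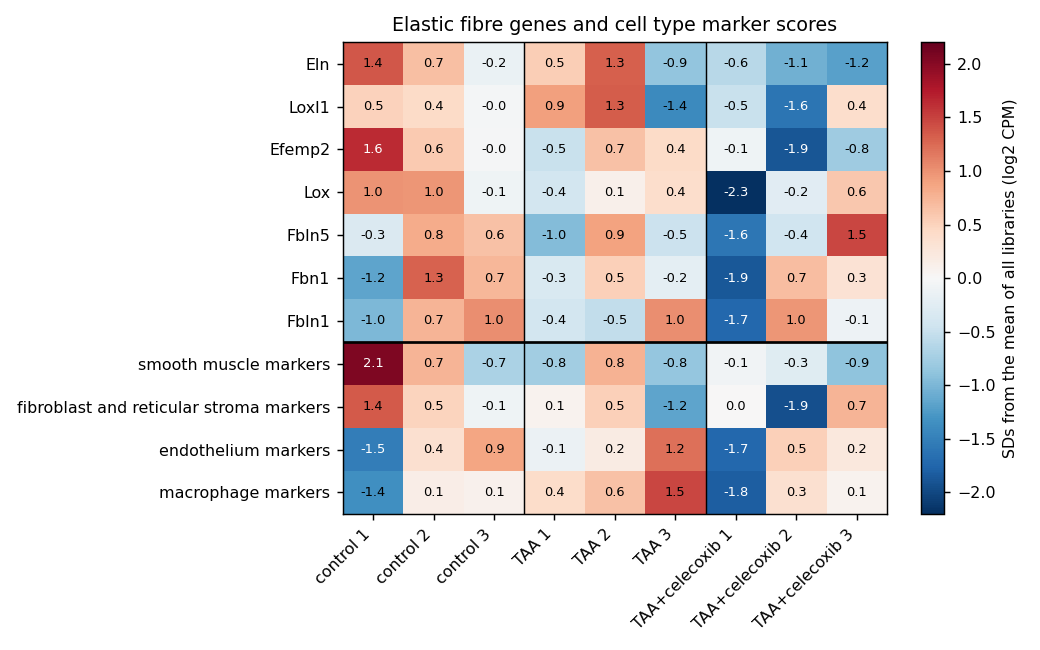
Log2 CPM of each detected elastic fibre gene and of 4 marker scores in each library, in SDs from the mean of the 9 libraries, with groups separated by vertical lines. The TAA+celecoxib 1 column is low for Lox, Fbln5, Fbn1 and Fbln1 and for endothelium and macrophage markers, and control 1 is high for Eln, Efemp2 and smooth muscle markers.

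**Figure D5:**
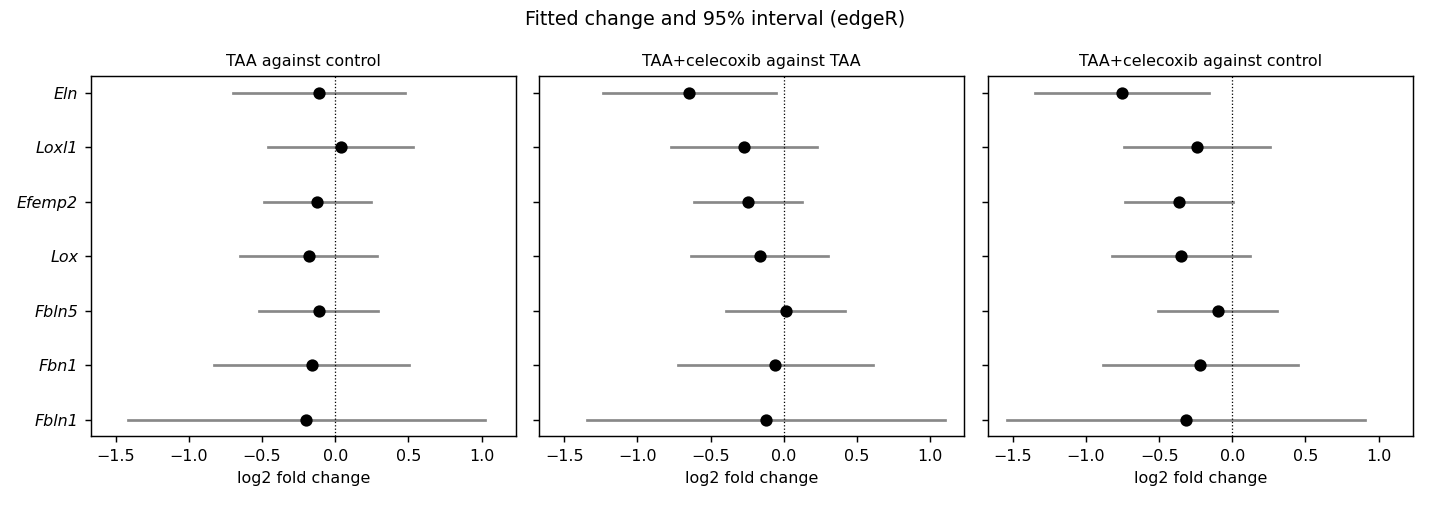
Fitted log2 difference of each tested elastic fibre gene (point) with its 95% interval (line) in the 3 comparisons, from edgeR. The interval of Eln lies below 0 in both TAA+celecoxib comparisons (-1.24 to -0.053 and -1.35 to -0.16), and every other interval includes 0.

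The members did not vary as a single unit. Among 21 pairs of members, the log2 levels correlated over the 9 libraries between r = -0.44 for Fbln1 with Loxl1 and r = 0.79 for Fbn1 with Fbln1. Eln had its highest values with Loxl1 (r = 0.75) and Efemp2 (r = 0.73), and Fbn1 had its own with Fbln1 and Fbln5 (r = 0.74), whereas Eln and Fbn1 had r = -0.0085. No pair passed after adjustment (smallest adjusted p = 0.121, exact permutation test). Without control 1 and TAA+celecoxib 1, Fbn1 with Fbln1 had r = 0.33 and Eln with Loxl1 r = 0.76. Genes outside the group whose log2 CPM most resembled the standardized mean of the members over the 9 libraries were Ercc6 and Scart1 (each with r = 0.95), Bdh2 and Engase (each with r = 0.94) and Rufy1 (r = 0.93). Those most like Eln alone were Tsr2 (r = 0.99), Dpp3 (r = 0.95) and Coq9 (r = 0.95). These are the highest values among all genes tested, over 9 libraries that share depth and composition, and carry no test.

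Other genes of elastic fibre assembly were likewise without calls. Of 22 genes listed, 21 were in the table and 18 were tested, and 0 passed edgeR's, DESeq2's or limma-voom's adjusted test in any comparison. The median log2 difference was -0.063 in TAA against control, -0.19 in TAA+celecoxib against TAA and -0.24 in TAA+celecoxib against control. At an unadjusted p under 0.05, 1 gene was lower in each comparison (Adamts10, Emilin1 and Adamts10) and 0 were higher, where 3.15%, 2.46% and 2.07% of all genes were lower at that value. Adamts10, a secreted protein of the metalloprotease family that binds microfibrils, averaged 80.4 ± 10.05 CPM in the control libraries, 53.0 ± 9.45 CPM in those of TAA and 56.5 ± 7.48 CPM in those of TAA+celecoxib. All 3 controls were above all 6 other libraries, with edgeR adjusted p-values of 0.788 and 0.911 against control. The share of all genes with such a split was not computed. Of the 18 genes, 1 was lower and 1 higher without overlap in TAA than in control, where 7.89% and 6.94% of all genes were. In TAA+celecoxib, 1 was lower without overlap than in TAA and 2 than in control, where 5.03% and 4.42% of all genes were. Emilin1, a glycoprotein at the border of elastin and microfibrils, averaged 357 ± 20.7 CPM in the TAA libraries, 207 ± 74.1 CPM in those of TAA+celecoxib and 266 ± 78.8 CPM in the controls, and the first of these groups lay above the second without overlap (edgeR adjusted p = 0.890). Its lowest values, 146 and 178 CPM, were in TAA+celecoxib 1 and control 1. Ltbp2, a latent TGF-beta binding protein of microfibrils, averaged 44.6 ± 10.4 CPM in the TAA libraries and 27.9 ± 13.2 CPM in the controls, with overlap. Bmp1, the protease that activates Lox, averaged 23.2 ± 5.24 CPM with celecoxib and 28.4 ± 3.42 CPM without it among the rats given TAA. Mfap2, another microfibril glycoprotein, averaged 1.02 ± 0.0478 CPM in the TAA+celecoxib libraries and 1.68 ± 0.0937 CPM in the controls.

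Proteases that can degrade elastin included genes with large differences between control and the rats given TAA. Of 12 listed, 11 were in the table and tested, with median log2 differences of 0.35, -0.65 and 0.34 in the 3 comparisons, and edgeR and limma-voom called 0 of them. DESeq2 called Elane, Prtn3 and Ctsg, serine proteases of neutrophil granules, as higher in TAA than in control, and 0 in the other comparisons. Of the 22742 genes it tested, DESeq2 called 50, 22 and 26 in the 3 comparisons. At an unadjusted p under 0.05, edgeR had 4 of 11 higher in TAA than in control (Mmp9, Elane, Prtn3 and Ctsg), where 2.85% of all genes were higher at that value. It had 3 of 11 lower (Mmp2, Elane and Ctsk) and 0 higher in TAA+celecoxib than in TAA, against 2.46% and 2.63% of all genes. In TAA+celecoxib against control it had 1 lower (Mmp2) and 3 higher (Elane, Prtn3 and Ctsg), against 2.07% and 2.96%. Ctsg was at 2.71, 5.06 and 2.90 CPM in control 1, 2 and 3, then 19.9, 18.6 and 78.5 CPM in TAA 1, 2 and 3, and 11.7, 36.0 and 8.35 CPM in TAA+celecoxib 1, 2 and 3. The controls lay below all 6 libraries of treated rats, and TAA 3 stood well above the rest. Of the 11 proteases, 4 were higher without overlap in TAA than in control, and 3 in TAA+celecoxib than in control. Of all genes, 6.94% and 5.27% were higher without overlap in these comparisons. The log2 difference of Ctsg was 3.45 ± 0.76 in TAA against control (edgeR adjusted p = 0.788). That of Elane was 3.64 ± 0.80 (edgeR adjusted p = 0.788) with TAA 3 at 59.3 CPM, and that of Prtn3 was 2.37 ± 0.79 in TAA+celecoxib against control (edgeR adjusted p = 0.911).

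Mmp2, gelatinase A, was at 29.8, 23.4 and 21.1 CPM in TAA 1, 2 and 3 and at 12.8, 18.9 and 12.7 CPM in TAA+celecoxib 1, 2 and 3. These groups did not overlap, and the log2 difference was -0.74 ± 0.21 (edgeR adjusted p = 0.890). Ctsk, a cysteine protease active on elastin, averaged 25.5 ± 7.96 CPM in the TAA libraries and 16.3 ± 1.06 CPM in those of TAA+celecoxib, also without overlap. These were the 2 of 11 proteases lower without overlap in that comparison, where 5.03% of all genes were. Among 9 inhibitors of such proteases, 7 were tested and 0 were called by any of the 3 tools, with median log2 differences of 0.012, -0.41 and -0.22. At an unadjusted p under 0.05, edgeR had Cst3 lower in TAA than in control, 0 genes in TAA+celecoxib against TAA, and Slpi, Cst3 and A2m lower in TAA+celecoxib than in control. Of all genes, 3.15%, 2.46% and 2.07% were lower at that value in these comparisons. Cst3, cystatin C, an inhibitor of cysteine cathepsins, averaged 814 ± 18.0 CPM in the controls, 543 ± 56.0 CPM in the TAA libraries and 581 ± 117 CPM in those of TAA+celecoxib, and all controls were above all other libraries. The share of all genes with such a split was not computed. Of the 7 inhibitors, 1 was lower without overlap in TAA than in control, and 2 in TAA+celecoxib than in control. Of all genes, 7.89% and 4.42% were lower without overlap in these comparisons. Slpi, an inhibitor of neutrophil elastase, was at 748, 1019 and 248 CPM in control 1, 2 and 3 and at 202 to 395 CPM in the other 6 libraries, so control 3 lay within their range. A2m, a broad protease inhibitor, averaged 0.544 ± 0.300 CPM with celecoxib and 1.36 ± 0.784 CPM without it among the rats given TAA, and Timp3, an inhibitor of metalloproteases, 128 ± 56.1 CPM and 183 ± 31.6 CPM. These groups overlapped for both genes (edgeR adjusted p = 0.890 for each). The A2m levels rest on few reads, since 1 count is 0.0522 to 0.0710 CPM in these libraries.

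Elastin receptors, 7 of 7 tested, were all fitted higher in TAA than in control (median log2 difference 0.43) and all lower in TAA+celecoxib than in TAA (median -0.30), with the TAA libraries shared by both comparisons. In TAA+celecoxib against control, 4 of 7 were fitted higher (median 0.044). Of all genes, 49.8%, 48.8% and 49.8% were fitted lower in these 3 comparisons. None of the receptors was called by any of the 3 tools. At an unadjusted p under 0.05 edgeR had Itgb5 and Lgals3, 2 of 7, lower in TAA+celecoxib than in TAA, where 2.46% of all genes were lower at that value. Itgb3, an integrin chain, averaged 67.7 ± 20.4 CPM in the TAA libraries and 31.6 ± 18.2 CPM in the controls, and its lowest values, 10.8 and 16.0 CPM, were in control 1 and TAA+celecoxib 1. Lgals3, galectin 3, averaged 147 ± 11.9 CPM without celecoxib and 91.7 ± 33.6 CPM with it among the rats given TAA, and Itgb5, another integrin chain, 170 ± 27.4 CPM and 85.3 ± 42.6 CPM, both without overlap (edgeR adjusted p = 0.890 for each). These were the 2 of 7 receptors lower without overlap in TAA+celecoxib than in TAA, where 5.03% of all genes were. In TAA against control, 3 of 7 receptors were higher without overlap, where 6.94% of all genes were. Neu1, the sialidase of the elastin receptor complex, averaged 28.1 ± 1.48 CPM in the controls, 37.9 ± 9.96 CPM in the TAA libraries and 34.8 ± 10.2 CPM in those of TAA+celecoxib. Itgav, the integrin chain that pairs with Itgb3 and Itgb5, averaged 24.2 ± 2.41 CPM in the controls and 29.3 ± 7.38 CPM in the TAA+celecoxib libraries. Macrophages carry several of these receptors, and the 9 macrophage markers summed to 2972 to 5435 CPM in control, 5933 to 8843 CPM in TAA and 2380 to 5052 CPM in TAA+celecoxib. The part of macrophage content in the receptor levels was not tested.

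Of 10 genes of TGF-beta signalling to matrix genes, all were tested and 0 were called by any of the 3 tools, with median log2 differences of 0.088, -0.19 and -0.17. At an unadjusted p under 0.05, edgeR had 0 of them in the first comparison, Tgfb3, Tgfbr1 and Ccn2 in the second and Tgfbr1 in the third, all lower. Of all genes, 3.15%, 2.46% and 2.07% were lower at that value. Ccn2, a target of TGF-beta, was at 96.7, 97.3 and 152 CPM in TAA 1, 2 and 3 and at 75.9, 65.0 and 62.2 CPM in TAA+celecoxib 1, 2 and 3, without overlap (log2 difference -0.77 ± 0.26, edgeR adjusted p = 0.890). Tgfbr1, a receptor chain, averaged 79.1 ± 4.08 CPM in the controls, 77.5 ± 4.56 CPM in the TAA libraries and 65.9 ± 0.353 CPM in those of TAA+celecoxib. All 3 TAA+celecoxib libraries were below all 6 others, with log2 differences of -0.23 ± 0.093 against TAA and -0.26 ± 0.093 against control. The share of all genes with such a split was not computed. Of the 10 genes, 3 were lower without overlap in TAA+celecoxib than in TAA, and 1 than in control. Of all genes, 5.03% and 4.42% were lower without overlap in these comparisons. The ligand Tgfb3 was at 24.5 CPM in TAA 2 and at 5.41 to 9.19 CPM in the other 8 libraries.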

How the data were processed

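RNA was isolated from spleen with TRIzol, per the labels' protocols, and 9 libraries were sequenced, 3 per group. The authors deposited a table of raw counts per gene and FPKM values beside them. A deposited FPKM is the count over the gene length and over a library constant, a factor of 0.955 to 1.05 against the count total. HISAT2 2.0.5 and the build mRatBN7.2 are named per the submitters' processing notes; no counting tool, annotation release or strand option is given in these sources, so overlapping genes could share reads and near-identical copies could split them. Gene coordinates are printed as the deposited table gives them, and their build is unresolved. Per-sample columns left unused numbered 0.

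Counts of all genes were tested with edgeR 4.0.16 in R 4.3.3 (quasi-likelihood fit of 9 libraries by group, TMM, filterByExpr with a minimum count of 10 and total of 15, 15954 genes, Benjamini-Hochberg adjustment, threshold 0.05, 2-sided). The common biological coefficient of variation was 0.311. CPM used TMM library sizes, log2 CPM a prior count of 2, and 95% intervals cover the error of the fit. All 36 pairs of libraries differed beyond counting error (chi-square at least 17.5 per degree of freedom), so none was merged. Alternatives were DESeq2 1.42.0, limma-voom (limma 3.58.1), other size factors, no filter, a replicate block and left-out libraries. The groups share replicate numbers in the sample titles. Correlations of deviations from the group means between libraries of the same number were 0.475, 0.178 and 0.337 for control with TAA+celecoxib. They were 0.240, -0.021 and 0.189 for control with TAA and 0.120, -0.213 and 0.033 for TAA with TAA+celecoxib. The highest, 0.475, was between control 1 and TAA+celecoxib 1, the libraries that stand apart. The labels state no pairing, and correlations from the same data cannot decide it. The main tests were unpaired, and the replicate block was an alternative. The fit was tested on simulated data. Correlations used exact permutation tests in Python 3.11.15. Named genes were all members, the 2 genes with the smallest p per comparison from each of 5 related lists, and the genes most like the members or Eln. A gene that this rule picked is not reported here. The members and lists were chosen with earlier results of these data known. The genes Hspg2 and Ctsv of those lists and the markers Col1a2 and Pecam1 were not analysed here. Promoters came from RefSeq, build GRCr8.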

Additional observations from a re-analysis of the deposited data

How the results depend on the processing

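Of 15 alternative settings, 12 per comparison changed the tool, the scaling, the filter, the block or the libraries of the groups compared. Under these, 227 of 252 log2 differences of members kept their direction and 25 reversed, none of them past the threshold. The members called were 0 in every setting, with a smallest adjusted p of 0.579. DESeq2 called 50, 22 and 26 of the 22742 genes it tested in TAA against control, TAA+celecoxib against TAA and TAA+celecoxib against control. Leaving out single libraries, edgeR called 0 to 1 (1 without TAA+celecoxib 2), 0 to 3 (3 without TAA 1) and 0 to 2 (2 without TAA 1). The median log2 difference of the members in TAA+celecoxib against TAA was -0.25 to 0.046 with single libraries left out and 0.050 without control 1 and TAA+celecoxib 1 together. Without both, Eln was 0.067 in TAA against control, and Fbn1 0.19, Fbln1 0.25 and Lox 0.050 in TAA+celecoxib against TAA. With limma-voom, Loxl1 was -0.012 in TAA against control and Fbln5 -0.0038 in TAA+celecoxib against TAA. With single libraries left out, TAA against control ranged from -0.36 to 0.12 for Eln, -0.39 to 0.041 for Fbn1, -0.65 to 0.071 for Fbln1 and -0.12 to 0.25 for Loxl1. TAA+celecoxib against TAA ranged from -0.18 to 0.15 for Fbln5, -0.24 to 0.19 for Fbn1, -0.67 to 0.34 for Fbln1 and -0.36 to 0.046 for Lox. TAA+celecoxib against control ranged from -0.45 to 0.028 for Fbn1, -0.87 to 0.050 for Fbln1 and -0.29 to 0.039 for Fbln5. The cause of these reversals was not tested beyond the libraries left out. Besides Eln, a few members reached an unadjusted p under 0.05 under some alternatives. Efemp2 did so in TAA+celecoxib against control under 5 of them, DESeq2 included (edgeR and DESeq2 p of 0.0311 to 0.0434). Lox did so in the same comparison without TAA+celecoxib 3 (-0.55, edgeR adjusted p = 0.652), and Loxl1 in TAA+celecoxib against TAA without TAA 3 (-0.48, edgeR adjusted p = 0.913). In TAA against control, Fbn1 did so without control 1 and TAA+celecoxib 1. With the replicate block, 0 genes were called in each comparison, and 1475, 1287 and 1065 had an unadjusted p under 0.05, against 957, 812 and 803 without it. Of the 9 libraries, 6 correlated best with a library of their own number, while same-number correlations ran from -0.213 to 0.475. The share expected by chance was not computed, so this count does not show pairing. In TAA+celecoxib against control, the blocked difference of Eln was -0.72 (unadjusted p = 0.00633, edgeR adjusted p = 0.698), and the block changed no call of a member in any comparison. With 3 libraries per group, the 95% intervals of the members include 0 in every comparison, except those of Eln in both TAA+celecoxib comparisons.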
